A study of Homo sapiens with 8 samples.

Results

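Genes of the G2 phase and mitosis were followed in NALM6, a human cell line from an acute lymphoblastic leukaemia of B-cell precursors, after induction of HMGN1. The set was a fixed list of 48 genes, found by symbol among 27424 genes, and each gene was represented by its transcript row with the highest mean. All 48 were in the table of all reads, and 45 were among the 6993 genes of the table of converted reads, from which TTK, CDC25C and ECT2 were absent. The libraries were made by SLAM-seq, in which 4-thiouridine taken up by the cells marks RNA made during the labelling, and a thiol modification turns the marked bases into T-to-C conversions in the reads. HMGN1 is a small chromatin protein that binds nucleosomes, and its S20,24E form carries changes that impair this binding.

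All 8 libraries came from cells given 100 µM 4-thiouridine for the last 5 h of a 6 h treatment. The vehicle group (3 libraries, A to C) and the induced wild-type group (3 libraries, A to C) carried an inducible wild-type HMGN1 gene and received vehicle or 100 ng/ml doxycycline. The induced mutant group (2 libraries, A and B) carried the S20,24E gene and received 100 ng/ml doxycycline. Doxycycline and the induced protein change together between vehicle and each induced group, and the engineered line changes with the protein, so these cannot be told apart, and the mutant line with vehicle was not analysed here. The labels call the libraries biological replicates without saying that they were separate cultures, so that p-values measure the spread between these libraries.

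Mitotic genes are transcribed late in the cell cycle. In resting and G1 cells the DREAM complex, which contains the MuvB core, keeps many of them silent, and in S and G2 phase the MuvB core binds MYBL2 (B-MYB) and then FOXM1 and activates them. MuvB contacts the cell cycle genes homology region (CHR), a short element near the transcription start, and the factor NF-Y binds CCAAT boxes upstream of it. The proteins made from these genes drive entry into mitosis, build the spindle, hold back anaphase until every kinetochore is attached, and are then largely destroyed through the anaphase-promoting complex.

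The promoters were searched because the genes are known for this shared control. Sequences 250 bases upstream of the annotated start were present for 41 of the 48 genes in the RefSeq promoter table (build GRCh38.p14), and BIRC5, AURKA, BUB3, TTK, TPX2, UBE2C and CDCA2 had no entry. The CHR letters TTTGAA stood on either strand in 22 of 41 promoters (53.7%), against 13.3% of 35116 promoters in the table. The variant TTCGAA was in 0 of 41 and in 1.19% of all promoters. A CCAAT box on either strand was in 30 of 41 (73.2%), against 32.0% of all promoters, and 19 of 41 (46.3%) held both elements, against 5.05%. The CHR letters lay within 60 bases of the start in 13 of 41 (31.7%), against 2.88%. In 2 promoters the CHR letters shared bases with a CCAAT box. A match describes the letters in the window and says nothing about binding. The 4 promoters below, the most abundant of those with both elements in the last 140 bases before the start, show how close the elements lie. They are printed 5′ to 3′ along the gene, with TTTGAA, and CCAAT or its reverse complement ATTGG, in capitals. They belong to MKI67, a proliferation antigen that coats mitotic chromosomes (chr10:128126424-128126563, minus strand), to CDC20, an activator of the anaphase-promoting complex (chr1:43358841-43358980, plus strand), to CDCA8 (borealin), a subunit of the chromosomal passenger complex (chr1:37692376-37692515, plus strand), and to PLK1, a kinase of mitotic entry and spindle assembly (chr16:23678749-23678888, plus strand).
MKI67: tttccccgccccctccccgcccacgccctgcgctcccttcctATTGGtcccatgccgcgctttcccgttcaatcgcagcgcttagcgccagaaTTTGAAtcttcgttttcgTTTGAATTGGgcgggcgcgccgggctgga
CDC20: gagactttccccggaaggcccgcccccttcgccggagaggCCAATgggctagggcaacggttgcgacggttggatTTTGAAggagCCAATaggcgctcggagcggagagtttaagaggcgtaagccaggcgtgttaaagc
CDCA8: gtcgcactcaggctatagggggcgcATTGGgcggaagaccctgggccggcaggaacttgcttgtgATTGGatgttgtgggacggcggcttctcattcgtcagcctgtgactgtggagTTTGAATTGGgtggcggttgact
PLK1: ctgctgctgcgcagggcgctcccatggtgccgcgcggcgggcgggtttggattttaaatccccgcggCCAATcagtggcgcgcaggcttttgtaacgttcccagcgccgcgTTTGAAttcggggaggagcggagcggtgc
In MKI67 and CDCA8 the last TTTGAA runs directly into ATTGG, so that the elements overlap, and this overlap was in no other promoter of the set. CDC20 has a CCAAT box on each side of its CHR, 100 and 55 bases before the start, with the CHR at 65 bases. In PLK1 the CHR lies 29 bases and the CCAAT box 73 bases before the start.

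**Figure D1:**
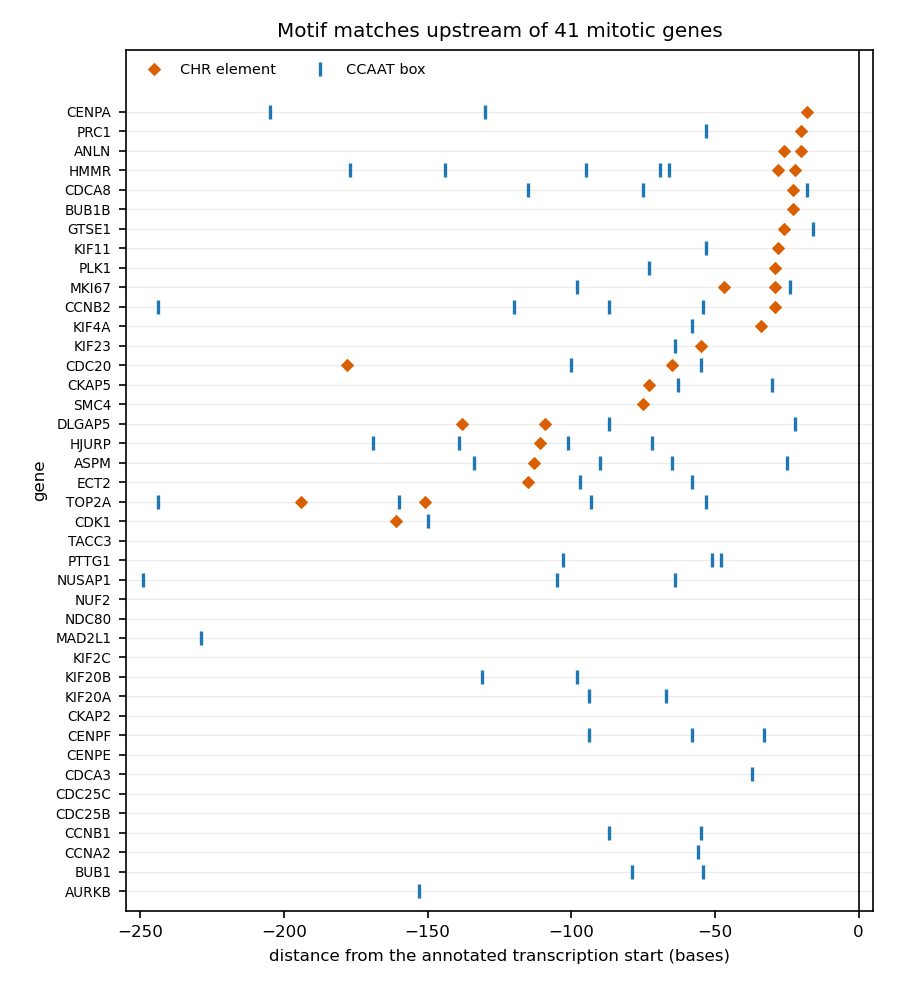
Positions of the CHR letters (diamonds) and CCAAT boxes (bars), on either strand, in bases before the annotated transcription start, for 41 mitotic genes (rows). CHR matches were found in 22 genes, 13 of them with one within 60 bases of the start.

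The libraries held 7.99 to 17.7 M reads, with 3.43 to 7.85 M in gene rows, and the conversion rate averaged over reads ran from 2.64% (vehicle A) to 5.20% (induced wild-type C). HMGN1 itself, whose reads do not separate the induced from the endogenous gene, was at 191, 153 and 145 CPM (reads scaled to library size, per the file headers) with vehicle, at 252, 217 and 317 CPM in induced wild type and at 223 and 200 CPM in induced mutant. Vehicle libraries lay below all induced ones, but limma adjusted p was 0.992 for induced wild type and 1.000 for induced mutant against vehicle. In the conversion rate the log2 differences of HMGN1 were 1.25 (SE 0.19) and 0.82 (SE 0.21), at limma adjusted p of 0.148 and 0.305. In converted reads they were 0.34 (SE 0.36) and -0.35 (SE 0.40), at limma adjusted p of 0.822 and 0.815, so the mutant value was below vehicle there. All 10 precursor B-cell markers had a mean of at least 1 CPM, with summed levels of 1531 to 1813 CPM over all libraries. T-cell markers summed to at most 0.145 CPM, with CD3D and CD2 at 0, and erythroid markers to at most 0.0964 CPM. Myeloid markers, of which 2 of 5 had a mean of at least 1 CPM, summed to 342 to 514 CPM, and plasma cell markers to 83.0 to 162 CPM. Of the myeloid markers only CSF1R had a mean of at least 5 CPM, so that sum is largely 1 gene. The mean conversion rate of CSF1R was 0.0119%, beside a median of 6.24% over all genes.

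All 48 genes were tested in all reads (log2(CPM + 1), mean of at least 1 CPM), where their means ran from 3.63 CPM (CDC25C) to 128 CPM (BIRC5). TACC3 (125 CPM) and MKI67 (103 CPM) followed at the top, and TTK (3.88 CPM) and ECT2 (3.96 CPM) stood with CDC25C at the bottom. Longer transcripts give more reads, so levels were compared between genes per kilobase of spliced transcript. On that scale UBE2C (87.1 CPM per kb) and PTTG1 (75.4 CPM per kb) were highest and KIF20B (0.842 CPM per kb) lowest. Behind the CPM values stood 16 to 95 reads per library for TTK and 946 to 2296 for BIRC5, so that the low genes carry more counting error. In 16 of 19 genes with several transcript rows all rows held the same values, and isoforms are therefore not separated.

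Mitotic genes differed widely between libraries of the same group. In induced wild-type C 43 of 48 genes stood above their own 8-library mean on the log2 scale, and that library held the highest value of 39 genes. Vehicle A held the lowest value of 29 genes, and 44 of 48 stood below their mean there. The median deviation from the gene mean was -0.49, 0.15 and 0.29 in vehicle A to C, 0.17, -0.24 and 0.56 in induced wild type (A to C), and -0.04 and -0.35 in induced mutant A and B. The ranges of the 3 groups overlapped. Over all 12458 genes tested the same medians were -0.28, 0.05 and 0.14, then 0.08, -0.15 and 0.31, then 0.01 and -0.13, in the same order of signs except in induced mutant A. For 24 S-phase genes (replication licensing, DNA synthesis and nucleotide supply) they ran from -0.25 in vehicle A to 0.13 in induced wild-type C. The SD within groups had a median of 0.41 (log2) over the mitotic genes, against 0.21 over the S-phase genes and 0.29 over all genes. In bulk RNA, fewer cells in G2 and M and less of each RNA per cell cannot be told apart.

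**Figure D2:**
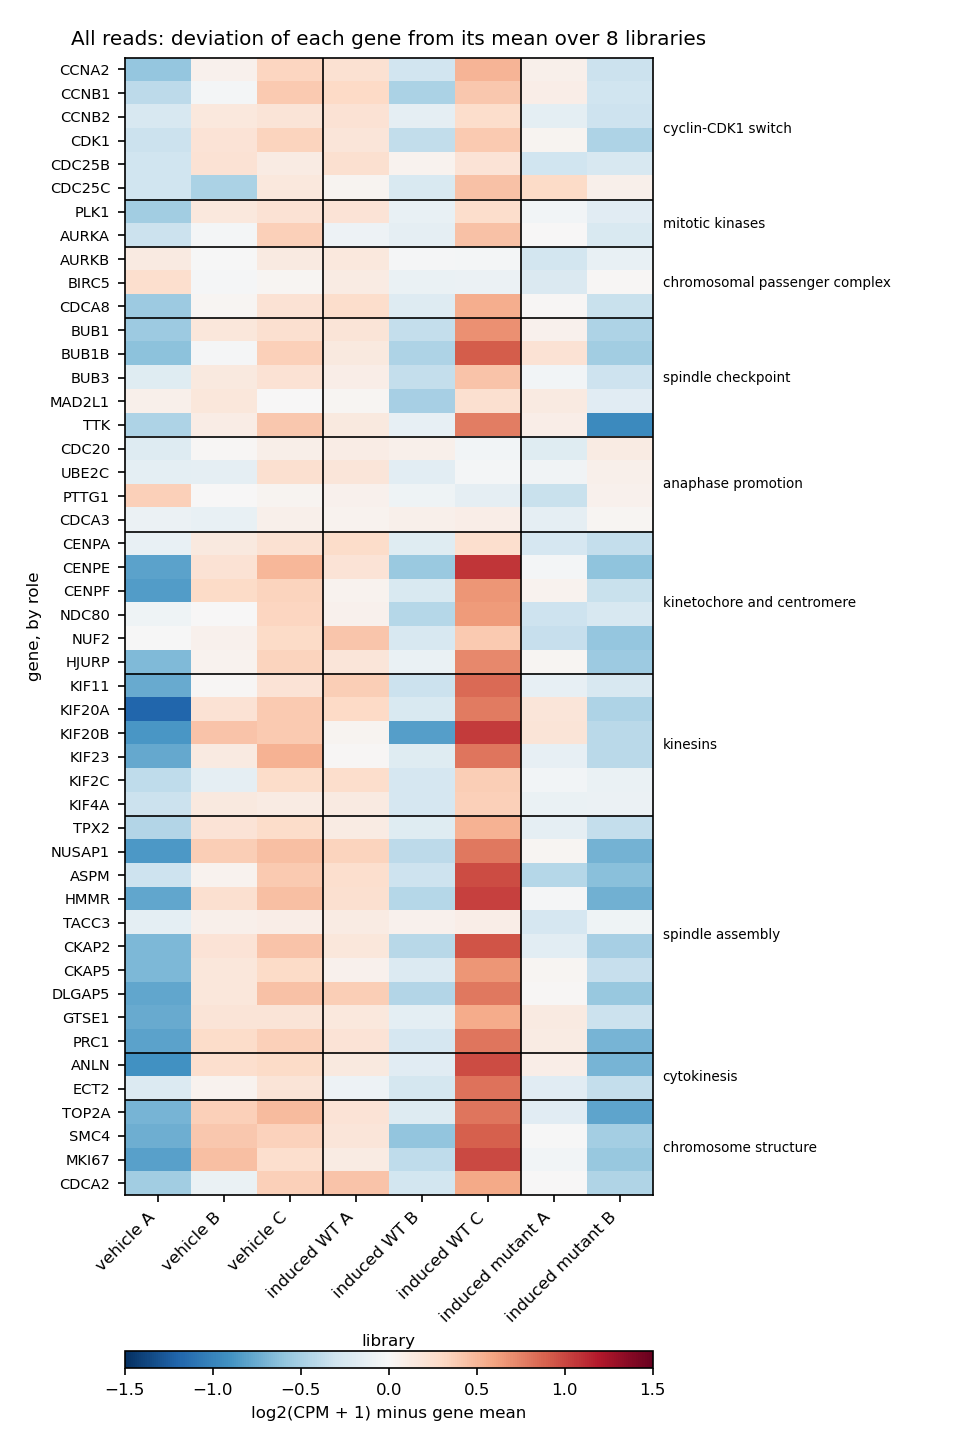
Deviation of log2(CPM + 1) in each library (columns, by group) from the gene's mean over 8 libraries, for 48 genes (rows, by role). Red columns (vehicle C, induced wild-type A and C) and blue columns (vehicle A, induced wild-type B, induced mutant B) occur within the same groups.

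A few genes did not follow this pattern. BIRC5, AURKB, MAD2L1 and PTTG1 were the 4 genes above their mean in vehicle A, and BIRC5, AURKB, UBE2C, CDC20 and PTTG1 the 5 not above it in induced wild-type C. These genes were singled out after their values were seen. PTTG1 (securin, the inhibitor of separase) had its highest level in vehicle A, at 72.3 CPM, where KIF20A, a kinesin of the central spindle, had its lowest, at 8.77 CPM. KIF20A reached 37.2 CPM in induced wild-type C, while PTTG1 was at 51.1 CPM there.

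Transcript length moved with the size of this spread. The 22 mitotic genes with a spliced transcript under 3000 bases had library medians from -0.23 to 0.38, a range of 0.61 (log2), and the 26 longer ones had medians from -0.68 to 0.80, a range of 1.48. Among all genes the ranges were 0.31 (6547 shorter) and 0.92 (5164 longer). Across the 48 genes, which are not independent replicates, Spearman's rho between spliced length and the distance from the lowest to the highest library was 0.65, against 0.35 across 11711 genes. The libraries also differ in depth and in conversion rate, and the part of RNA integrity, of length-dependent recovery and of the cells' position in the cycle in the spread was not tested.

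**Figure D3:**
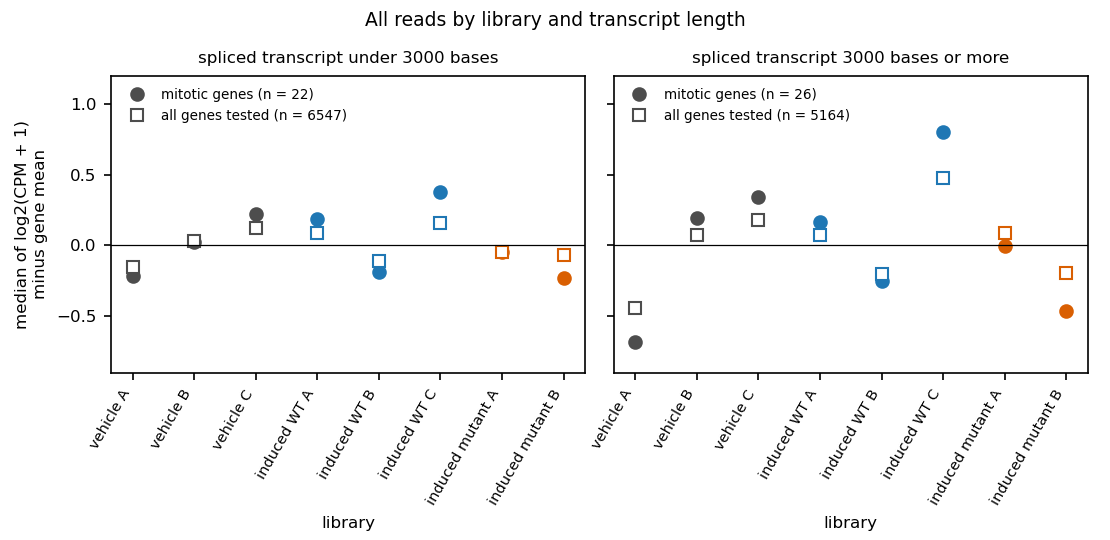
Median deviation from the gene mean (log2(CPM + 1), y axis) in each library (x axis, coloured by group) for mitotic genes (filled circles) and all genes tested (open squares), split at a spliced length of 3000 bases. The longer mitotic genes run from -0.68 in vehicle A to 0.80 in induced wild-type C, the shorter ones from -0.23 to 0.38.

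No mitotic gene passed limma's threshold in all reads. Induced wild type against vehicle gave 0 of 48 calls at a limma adjusted p under 0.05, in a comparison in which 0% of 12458 genes were called, and the smallest adjusted p was 0.992, with 0 genes at an unadjusted p under 0.05. Induced mutant against vehicle gave 0 of 48 (background 0.0321%), with a smallest adjusted p of 1.000 and 0 genes at an unadjusted p under 0.05. Induced mutant against induced wild type gave 0 of 48 (background 0.0321%), with a smallest adjusted p of 1.000 and 2 genes, NUF2 and ASPM, at an unadjusted p under 0.05. These 2 are 4.17% of the 48. Over all genes the shares at an unadjusted limma p under 0.05 were 0.947%, 3.75% and 2.75%, in the order above. These comparisons share libraries and are not independent. edgeR and DESeq2 on the recovered reads also called 0 of 48 in each. Standard errors of the log2 fold changes ran from 0.13 to 0.49 between induced wild type and vehicle and from 0.14 to 0.55 with the mutant. These are not detection limits, as a difference must be several times its standard error to pass the adjustment over all genes. Few genes passed in any comparison, and HMGN1 itself did not, with a log2 fold change of 0.67 (SE 0.17) in induced wild type against vehicle, so a missed threshold does not show equal levels.

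The signs of the fold changes were uneven. Against vehicle, 42 of 48 genes had a positive log2 fold change in induced wild type, with a median of 0.21, beside 67.6% positive and a median of 0.09 over all genes. Without vehicle A this median was -0.06, and without induced wild-type C it was -0.03, so that a single library sets its sign. In induced mutant against vehicle 6 of 48 were positive, beside 42.5% over all genes, with a median of -0.18 beside -0.04. Without induced mutant B the median of the mitotic genes was -0.003. In induced mutant against induced wild type 3 of 48 were positive, beside 26.6% over all genes, with a median of -0.36 beside -0.12. This last median stayed below 0 under all 22 settings tried, from -0.57 to -0.15. The replicate libraries of a group differed in their member median by an SD of 0.44 (log2), which is larger than each of these medians.

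Non-overlapping groups were counted as a description. No gene had all induced wild-type libraries above, or all below, all vehicle libraries (background 2.51% above, 1.53% below). Both induced mutant libraries lay below all vehicle libraries for 5 of 48 genes (ASPM, AURKB, CENPA, NDC80 and NUF2; background 11.4%) and above them for 0 (background 4.62%). They lay below all induced wild-type libraries for 8 genes (background 13.2%) and above for 0 (background 1.8%). These shares are near or below the background of the comparisons.

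The cyclin-CDK1 switch starts mitosis. CCNB1, the cyclin B1 subunit of the mitotic CDK1 kinase, was at 46.5, 59.8 and 80.7 CPM with vehicle, at 75.6, 43.7 and 81.0 CPM in induced wild type and at 65.6 and 49.6 CPM in induced mutant. Its lowest and highest library, induced wild type B and C, belong to the same group, and the log2 fold changes against vehicle were 0.08 (SE 0.26) and -0.09 (SE 0.30). CDK1 ran from 16.4 to 30.4 CPM and CCNB2 from 32.2 to 48.2 CPM. CDC25C, a phosphatase that activates CDK1, had the largest positive all-read fold change of the set against vehicle in induced mutant, 0.39 (SE 0.29, limma adjusted p = 1.000), from 2.70, 2.26 and 4.06 CPM with vehicle to 4.53 and 3.79 CPM. The groups overlapped for CDC25C, and without vehicle B its fold change was 0.25.

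Among the mitotic kinases and the chromosomal passenger complex, which corrects faulty attachments of chromosomes to the spindle, the highest library was at most 2.17 times the lowest (CDCA8). PLK1 was at 31.8, 51.7 and 53.5 CPM with vehicle, 53.0, 42.6 and 55.4 CPM in induced wild type and 44.7 and 40.8 CPM in induced mutant, and vehicle A was its lowest library. BIRC5 (survivin) was at 151, 126 and 129 CPM with vehicle, 139, 118 and 119 CPM in induced wild type and 110 and 129 CPM in induced mutant. Its vehicle A library was the highest, opposite to PLK1. AURKB, the kinase of the passenger complex, was at 59.5, 53.8 and 59.4 CPM with vehicle and at 44.5 and 49.6 CPM in induced mutant, with no overlap, a log2 fold change of -0.29 (SE 0.15) and a limma adjusted p of 1.000. CDCA8 had one of the smallest unadjusted p-values of the positive changes in induced wild type against vehicle, with a log2 fold change of 0.30 (SE 0.24), and its groups overlapped. Leaving out vehicle A gave 0.08, and the same step with induced wild-type B gave 0.50.

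The spindle checkpoint holds back anaphase. BUB3, which recruits checkpoint kinases to kinetochores, was at 59.4, 74.6 and 78.4 CPM with vehicle, 71.9, 52.2 and 91.1 CPM in induced wild type and 65.6 and 54.1 CPM in induced mutant. Again the extremes were induced wild type B and C. TTK, the kinase at the top of the checkpoint, was at 1.38 CPM in induced mutant B and 6.88 CPM in induced wild-type C, and MAD2L1, the inhibitor of CDC20, stayed between 7.76 and 13.6 CPM. The group labelled anaphase promotion held CDC20, UBE2C, CDCA3 and PTTG1, although PTTG1 inhibits separase. Of these, CDC20 was at 72.1, 83.7 and 87.4 CPM with vehicle, 89.5, 86.7 and 80.0 CPM in induced wild type and 72.7 and 90.1 CPM in induced mutant. CDC20 was among the least variable genes of the set, with a highest library 1.25 times the lowest, and CDCA3, a trigger of mitotic entry, had a ratio of 1.18. UBE2C, the ubiquitin-conjugating enzyme of the anaphase-promoting complex, ran from 66.1 to 87.5 CPM.

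Kinetochore and motor genes attach chromosomes to the spindle and move them. CENPF, a large protein of the outer kinetochore, was at 34.8, 77.3 and 80.0 CPM with vehicle, 65.6, 53.6 and 101 CPM in induced wild type and 65.5 and 49.9 CPM in induced mutant. The vehicle libraries alone spanned more than the group means differed. NUF2, a subunit of the microtubule-binding NDC80 complex, was at 11.1, 11.7 and 13.8 CPM with vehicle, 15.2, 9.27 and 15.0 CPM in induced wild type and 8.58 and 7.15 CPM in induced mutant. Both mutant libraries were the lowest, with log2 fold changes of -0.58 (SE 0.26) against vehicle and -0.65 (SE 0.26, unadjusted p = 0.0312, limma adjusted p = 1.000) against induced wild type. The kinesin KIF2C, which depolymerises microtubules at kinetochores, was at 29.2, 34.8 and 46.8 CPM with vehicle, 46.2, 32.2 and 49.7 CPM in induced wild type and 37.3 and 35.6 CPM in induced mutant. Its mutant libraries lay inside the range of both other groups. KIF11, the motor that separates the spindle poles, had the largest positive log2 fold change of induced wild type against vehicle, 0.48 (SE 0.33), from 6.41, 11.7 and 13.4 CPM to 15.2, 9.02 and 21.5 CPM, with overlap. The value was 0.19 in the absence of vehicle A and 0.79 in that of induced wild-type B.

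The spindle assembly genes ranged from steady to highly variable. TACC3, a stabiliser of spindle microtubules, was at 113, 132 and 134 CPM with vehicle, 136, 131 and 134 CPM in induced wild type and 104 and 119 CPM in induced mutant. Its mutant libraries lay below all induced wild-type ones, and its log2 fold change was -0.26 (SE 0.14), with a limma adjusted p of 1.000. ASPM, a protein of the spindle poles, was at 10.1, 13.4 and 17.2 CPM with vehicle, 15.4, 10.1 and 26.2 CPM in induced wild type and 9.26 and 7.93 CPM in induced mutant. Against induced wild type ASPM had the most negative all-read fold change of the set, -0.84 (SE 0.36, unadjusted p = 0.0406, limma adjusted p = 1.000). It was -0.50 without induced wild-type C. ANLN, a scaffold of the cytokinetic ring, was at 3.15, 8.25 and 8.51 CPM with vehicle, 7.58, 5.89 and 14.3 CPM in induced wild type and 7.33 and 3.79 CPM in induced mutant. MKI67 was at 54.2, 132 and 114 CPM with vehicle, 104, 73.8 and 192 CPM in induced wild type and 93.0 and 64.2 CPM in induced mutant. For ANLN and MKI67 the groups overlapped in every comparison.

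Conversion rates of the mitotic genes were mostly above the all-gene median and had a similar order in all libraries. The rate is deposited per transcript row, and rows with a single read held rates strictly between 0 and 100% in 12527 of 29863 cases (41.9%), so the rate was taken as a share of bases, not of reads. Which bases are counted is not given in the sources used here, so rates of different genes may not be directly comparable. For the 45 genes with a mean of at least 5 CPM the median rate was above the median over 8724 genes in each of the 8 libraries. The pairs of medians were 6.56% and 4.93% in vehicle A, 7.36% and 5.84% in vehicle B and 7.91% and 6.73% in vehicle C. In induced wild type they were 7.55% and 6.68% (A), 6.14% and 5.40% (B) and 8.19% and 7.32% (C), and in induced mutant 8.57% and 6.81% (A) and 6.63% and 5.43% (B). Between 32 and 38 of 45 genes stood above the all-gene median, depending on the library, and the ratio of the medians ran from 1.12 to 1.33. Averaged over libraries, 35 of 45 mitotic genes were above the all-gene median, and 6 of 23 S-phase genes were, with medians of 7.36% and 5.53%. In 6 further lists, described below, medians ran from 5.67% (7 condensin genes) to 7.57% (8 genes of mitotic entry and exit control), beside 6.24% over all genes. RNA that is replaced faster holds more converted bases after a fixed labelling time, and the rate does not by itself separate faster synthesis from faster decay.

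The order of the mitotic genes by conversion rate was similar between libraries. Spearman's rho between libraries, across 45 genes, ran from 0.65 to 0.92 over 28 pairs, with a median of 0.82, and rho between a gene's mean rate and its all-read level was 0.18. AURKB had the highest mean rate, 10.5%, and ranked between 43 and 45 of 45 in every library. Its rates were 9.13%, 10.7% and 10.9% with vehicle, 11.1%, 10.1% and 11.2% in induced wild type and 11.5% and 9.75% in induced mutant. HJURP, the chaperone that loads the centromeric histone CENPA, also had a mean of 10.5%, and PLK1 one of 9.93%. At the other end CCNA2, the cyclin of S and G2 phase, had a mean of 4.62% and ranked between 1 and 5 from the bottom. Its rates were 4.34%, 3.92% and 5.49% with vehicle, 4.85%, 3.89% and 5.72% in induced wild type and 5.34% and 3.39% in induced mutant. PTTG1 (4.71%) and BIRC5 (5.30%) came next, and CCNA2, PTTG1 and BIRC5 were below the all-gene median in 8 of 8 libraries. AURKB and BIRC5 are subunits of the same complex and lay at opposite ends. By role, the highest medians were those of the mitotic kinases (9.56%, PLK1 and AURKA) and of the anaphase promotion genes (8.95%), and the lowest that of the cyclin-CDK1 switch (6.32%). The anaphase promotion group held 4 genes, from PTTG1 (4.71%) to CDCA3 (9.51%), so its median does not hold for each of them.

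**Figure D4:**
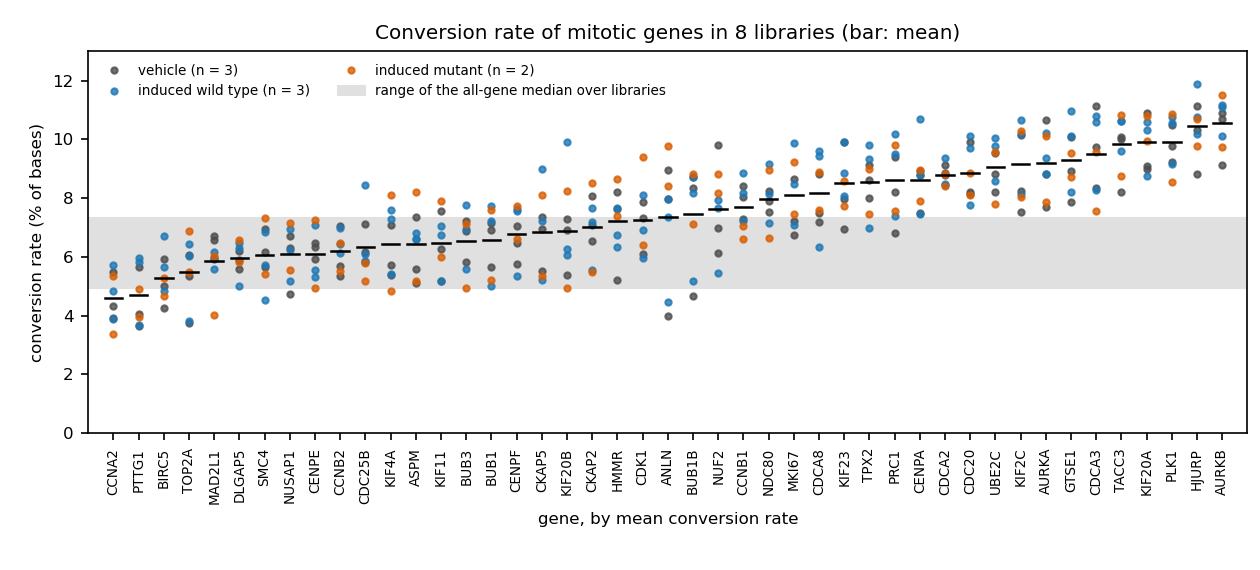
Conversion rate (% of bases, y axis) of 45 mitotic genes (x axis, by mean) in 8 libraries (points, coloured by group; bars, means), with the range of the all-gene median over libraries in grey. Means run from 4.62% (CCNA2) to 10.5% (AURKB), and points of the 3 groups mix within most genes.

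Genes with and without the CHR letters were set side by side. The 21 with a rate and a CHR had a median conversion rate of 7.36%, from 5.48% to 10.5%, and the 18 without had 6.95%, from 4.62% to 10.5%. The median distance between lowest and highest library in all reads was 1.53 (log2) with the CHR letters and 1.03 without. The 2 sets were not matched for spliced length, with which this distance rose across the 48 genes (Spearman's rho 0.65). The difference in distance therefore cannot be assigned to the CHR letters. These are descriptions of overlapping ranges.

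No conversion rate of a mitotic gene passed limma's threshold, on the scale log2(percent + 0.5) with each library's median set to 0. Induced wild type against vehicle gave 0 of 45 calls (background 0%), with a smallest limma adjusted p of 0.948 and 1 gene at an unadjusted p under 0.05. Induced mutant against vehicle gave 0 of 45 (background 0.0115%), with a smallest adjusted p of 0.577 and 3 such genes, and induced mutant against induced wild type 0 of 45 (background 0.0115%), with 0.957 and 3 such genes. These 1, 3 and 3 genes are 2.22%, 6.67% and 6.67% of the 45, beside 4.21%, 7.89% and 5.10% over all genes. Median log2 fold changes were -0.07, -0.06 and 0.002, beside -0.004, -0.02 and -0.009 over all genes. The 37 of 45 negative values in induced wild type against vehicle, beside 4448 of 8724 over all genes, are relative to the library medians. Without that centring the median was 0.06, as the conversion rates of all genes differ between the libraries. SMC4, a condensin subunit, had the smallest unadjusted p there, 0.0112, with a log2 difference of -0.28 (SE 0.09), at a limma adjusted p of 0.948. Its rates were 5.67%, 6.16% and 6.94% with vehicle and 5.71%, 4.54% and 6.85% in induced wild type, with overlap.

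ANLN and TOP2A, the topoisomerase that untangles sister chromatids, had the smallest unadjusted p-values among higher rates in induced mutant against induced wild type. ANLN was at 7.37%, 4.45% and 7.98% in induced wild type and at 9.78% and 8.42% in induced mutant, with no overlap, and the log2 difference was 0.54 (SE 0.22), at a limma adjusted p of 0.957. TOP2A had a log2 difference of 0.27 (SE 0.12, adjusted p = 0.977) with overlap, and 0.17 without induced wild-type B. The smallest p-values among negative values in induced mutant against vehicle were those of MAD2L1 (-0.41, SE 0.16, limma adjusted p = 0.580) and CDCA3 (-0.24, SE 0.09, adjusted p = 0.577), both with overlap. On the scale of percent, groups did not overlap for 2 of 45 genes higher (ANLN and NUF2, background 1.8%) and 2 of 45 lower (CCNB1 and CDC25B, background 8.17%) in induced mutant than in induced wild type. Against vehicle the mutant was lower for 2 of 45 genes, again CCNB1 and CDC25B (background 3.92%), and higher for 0 (background 5.28%). Induced wild type did not separate from vehicle for any of the 45 (background 4.67% higher, 0.459% lower).

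Converted reads, deposited as FPKM, were low for most mitotic genes, and 41 of the 45 listed passed a mean of at least 1 FPKM, CCNA2, MAD2L1, KIF20B and CKAP2 being left out. In 11 of the 45 genes at least 1 library was listed at 0, in 8 of them vehicle A, although all-read values were present there. Between 95.1% and 99.6% of the low values of a library, those under 5 steps, lay within 0.1 of a step of a whole multiple of a fixed step. This step differed between libraries, from 0.175 FPKM in vehicle C to 0.523 FPKM in vehicle A, so the lowest values printed below rest on few steps. Within a library the step was alike for transcripts under and over 3000 bases. Despite the unit's name these values thus carry no trace of division by length and are not compared between genes. TACC3 was at 17.3, 26.3 and 27.9 FPKM with vehicle, 28.4, 34.2 and 34.6 FPKM in induced wild type and 20.4 and 27.0 FPKM in induced mutant. All its induced wild-type libraries lay above the others, with a log2(FPKM + 1) fold change of 0.45 (SE 0.25, limma adjusted p = 0.659) against vehicle.

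No mitotic gene passed limma's threshold in converted reads. Induced wild type against vehicle gave 0 of 41 calls (background 0%), with a smallest limma adjusted p of 0.583 and 1 gene at an unadjusted p under 0.05. Induced mutant against vehicle gave 0 of 41 (background 0.401%), with a smallest adjusted p of 0.325 and 2 such genes, and induced mutant against induced wild type 0 of 41 (background 0%), with 1.000 and 3 such genes. These 1, 2 and 3 genes are 2.44%, 4.88% and 7.32% of the 41, beside 7.93%, 11.8% and 2.95% over all genes. The median log2 fold change against vehicle was 0.23 in induced wild type, the same as the 0.23 over all genes, and with each library's median set to 0 it was -0.11. In induced mutant it was -0.18 against vehicle, beside 0.17 over all genes, and 0.13 without induced mutant B. Against induced wild type the mutant had a median of -0.28, beside -0.04, which stayed negative under all 19 settings tried, from -0.51 to -0.03.

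ANLN had the smallest unadjusted p of the converted reads in induced wild type against vehicle, with 0, 0.95 and 1.40 FPKM with vehicle against 2, 2.44 and 4.09 FPKM. The groups did not overlap, and the log2 fold change was 1.16 (SE 0.44, unadjusted p = 0.0178, limma adjusted p = 0.583), with vehicle A listed at 0. In induced mutant against vehicle KIF4A, a chromosome-bound kinesin, was at 3.27 and 1.63 FPKM against 0.52, 0 and 1.05 FPKM, a log2 difference of 1.198 (SE 0.47) at a limma adjusted p of 0.325. KIF11 was at 3.26 and 1.63 FPKM against 0.52, 0.64 and 0.88 FPKM (log2 fold change 1.00, SE 0.46, limma adjusted p = 0.416), and its fold change was 0.65 without mutant A. Both kinesins were higher in both mutant libraries than in any vehicle library. For both, the 0.52 FPKM of vehicle A equals 1 step, so the differences rest on vehicle values near the floor. BUB1, a checkpoint kinase, was at 4.75 and 0.98 FPKM in induced mutant, against 6.45, 5.86 and 6.74 FPKM for induced wild type, a log2 difference of -1.12 (SE 0.43) at a limma adjusted p of 1.000, with mutant B farther below than mutant A. Without mutant A the difference was -1.89, and without mutant B it was -0.35. TPX2, a spindle assembly factor that activates AURKA, was in the same comparison at 1.48 and 0.63 FPKM against 2.21, 3.91 and 4.07 FPKM. In induced mutant against vehicle DLGAP5, a spindle protein, and BUB3 had log2 differences of -0.80 (SE 0.43) and -0.62 (SE 0.39), with limma adjusted p-values of 0.5004 and 0.609. Groups did not overlap for 7 of 41 genes higher in induced wild type than with vehicle (background 10.7%) and 0 lower (background 1.26%), for 4 of 41 higher and 4 of 41 lower in induced mutant than with vehicle (background 20.4% and 7.81%), and for 11 of 41 lower (background 11.8%) and 0 higher (background 5.18%) in induced mutant than in induced wild type. The shares of 7, of 4 lower and of 11 genes were above their backgrounds, and that of 4 higher was below. These shares were not tested, as the genes were chosen with earlier results of these data known.

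**Figure D5:**
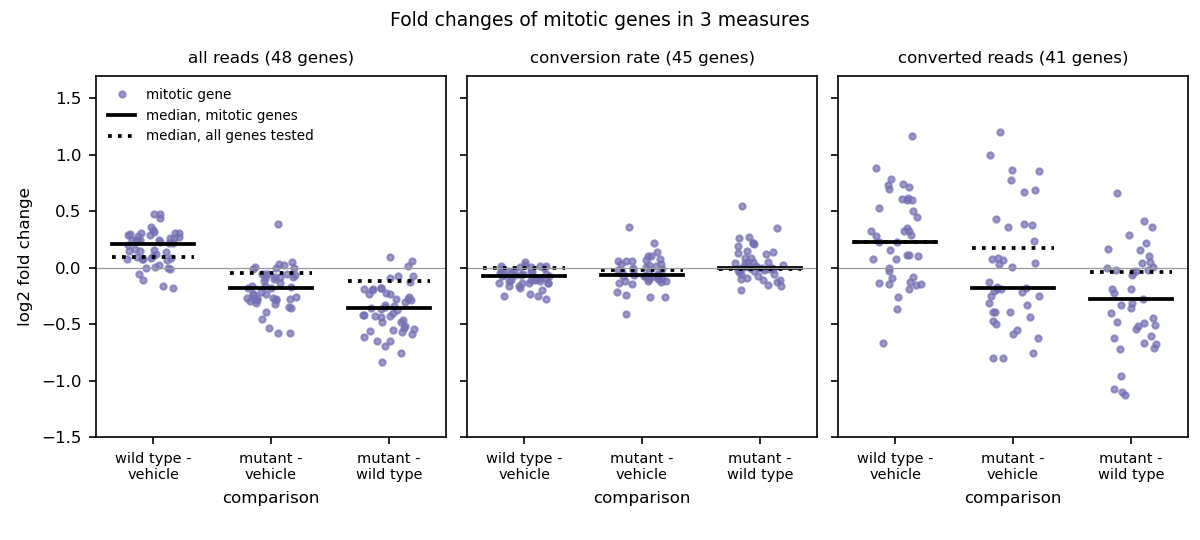
Log2 fold changes (y axis) of mitotic genes (points) in 3 comparisons (x axis) for all reads, conversion rate and converted reads, with the median of the mitotic genes (solid line) and of all genes tested (dotted line). In all reads the medians are 0.21, -0.18 and -0.36, and no point passed limma's adjusted threshold.

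The regulators and partners of the mitotic genes were read from 6 further lists, together with the S-phase genes. FOXM1 was at 29.5, 43.7 and 42.7 CPM with vehicle, 42.9, 33.8 and 50.2 CPM in induced wild type and 35.5 and 35.3 CPM in induced mutant, with vehicle A the lowest, as for 29 of the mitotic genes. MYBL2 was at 293, 317 and 273 CPM with vehicle, 273, 314 and 247 CPM in induced wild type and 208 and 260 CPM in induced mutant, and its vehicle A value was not low. In all reads 0 of 15 genes controlling mitotic transcription, 0 of 16 of the anaphase-promoting complex, 0 of 7 condensin, 0 of 10 cohesin, 0 of 17 other kinetochore and checkpoint, 0 of 9 mitotic entry and exit and 0 of 24 S-phase genes passed limma's threshold in any comparison. Their medians in induced mutant against induced wild type were -0.17, -0.15, -0.21, -0.26, -0.13, -0.04 and -0.03, beside -0.36 for the mitotic genes. A single gene of these lists passed, MAD1L1, a partner of MAD2L1 in the checkpoint, in converted reads. It was at 22.5, 22.9 and 30.5 FPKM with vehicle, 37.8, 51.2 and 48.95 FPKM in induced wild type and 73.0 and 61.2 FPKM in induced mutant, with a log2 difference of 1.38 (SE 0.25) and a limma adjusted p of 0.0290 in induced mutant against vehicle. With no mean-variance trend in limma, 0 of 5737 genes were called in that comparison. LIN52 of the MuvB core (1.45, SE 0.51, limma adjusted p = 0.545, converted reads, induced wild type against vehicle), STAG2 of cohesin (0.38, SE 0.11, adjusted p = 0.386, conversion rate, induced mutant against vehicle) and NCAPG of condensin (0.31, SE 0.11, adjusted p = 0.863, conversion rate, induced mutant against induced wild type) had the smallest unadjusted p-values of their lists and did not pass. The same holds for CDC27 of the anaphase-promoting complex (-0.43, SE 0.17, limma adjusted p = 0.948) and ARPP19, an inhibitor of the phosphatase that opposes CDK1 (-0.24, SE 0.10, adjusted p = 0.948), both in the conversion rate of induced wild type against vehicle.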

How the data were processed

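Poly(A) RNA of 8 libraries was prepared with a stranded kit for Illumina sequencing, per the labels' protocols. The genome build was hg19 (GRCh37), per the submitters' processing notes, with aligner, caller, counted regions and use of strand being not given in the sources used here, so that reads of overlapping and antisense genes cannot be told apart. All reads were deposited as a signal per transcript, named CPM per the file headers, and 100% of the values were whole multiples of the worth of 1 read within 0.1 read. The authors deposited the conversion rate as a fraction per transcript, printed here in percent, and converted reads as FPKM per transcript, whose low values step without division by transcript length. In the table of all reads, rows without a symbol were left out, among them 64 that RefSeq assigns to these genes, and for 3 genes such a row was higher.

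Values were tested with limma 3.58.1 (R 4.3.3) in a model of all 8 libraries without covariates, with a mean-variance trend and Benjamini-Hochberg adjustment over all genes tested (12458, 8724 and 5737), passing under 0.05. The trend was chosen after seeing the data. All reads and converted reads were tested as log2(value + 1) at a mean of at least 1, and the conversion rate as log2(percent + 0.5) at a mean of at least 5 CPM, so that changes of low genes are understated. edgeR 4.0.16 (quasi-likelihood) and DESeq2 1.42.0 were run on the recovered reads as alternatives. Spliced lengths came from GENCODE 29, joined by transcript accession, and promoters from RefSeq, joined by symbol. The tests were first run on simulated data in which genes varied independently. That simulation held none of the shared differences between libraries seen here, so it does not show how the tests perform on these data. Summaries were made in Python 3.11.15 with numpy 2.4.6 and pandas 2.3.3, and figures with matplotlib 3.10.9. The mitotic genes and all lists were chosen with earlier results of these data known. Named with values were, per role, the gene with the highest all-read level, the extremes of level and conversion rate, the 2 genes with the smallest unadjusted p in each direction of each comparison, and, of the other lists, genes that passed or had the smallest p. These genes are described, with 1 exception that is left out.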

Additional observations from a re-analysis of the deposited data

How the results depend on the processing

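No mitotic gene was called under any of the 22 settings for all reads, 16 for the conversion rate and 19 for converted reads, and the smallest adjusted p of any setting was 0.158 (limma, converted reads, induced mutant against vehicle, replicate block). Medians of the log2 fold changes stayed within the spread between replicates in 167 of 171 recomputed values. In all reads that spread (SD 0.44) exceeds the medians themselves, so a median can change sign inside it. Signs changed in 4 of 16 settings for the conversion rate in induced mutant against induced wild type. They changed in 3 of 19 for converted reads in induced wild type against vehicle, and in 0 of 22 for all reads in induced mutant against induced wild type. Without centring, the conversion rate medians were 0.065 (induced wild type against vehicle), 0.0059 (induced mutant against vehicle) and -0.070 (induced mutant against induced wild type), as the conversion rates of all genes differ between libraries. After median-centring of each library, the converted-read median in induced wild type against vehicle became -0.11, and the all-gene median moved likewise, from 0.23 to -0.11. Chosen after seeing the data, removal of each library's trend on transcript length gave all-read medians of 0.04, -0.16 and -0.22 for the 3 comparisons in the order above, and a fit with no mean-variance trend left the medians as they were.

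Correlations of library deviations could not decide whether the replicate letters pair the libraries. Deviations from a group's mean cancel within that group, so these correlations constrain each other. In all reads same-lettered libraries correlated at 0.29 (A), -0.36 (B) and 0.65 (C) between vehicle and induced wild type. Between vehicle and induced mutant the values were -0.64 (A) and -0.42 (B). Between induced wild type and induced mutant they were -0.36 (A) and 0.59 (B). With the replicate block the all-read median of induced mutant against vehicle was 0.02 and that of induced mutant against induced wild type -0.18, and converted-read calls over all genes in induced mutant against vehicle went from 23 to 149. In all reads DESeq2 called 75 genes in that comparison, against 4 with limma and 3 with edgeR (TMM).

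Leaving out 1 library at a time moved 23 of 36 named fold changes by over 1.5 times in at least 1 case. The log2 fold changes of 6 named genes changed sign, with ranges in induced mutant against induced wild type of -0.059 to 0.27 (CDC25C, all reads), -0.15 to 0.22 (MAD2L1, all reads), -0.42 to 0.025 (CDC25B, conversion rate) and -0.064 to 1.39 (HMMR, converted reads), in induced mutant against vehicle of -0.044 to 0.15 (UBE2C, all reads) and in induced wild type against vehicle of -0.019 to 0.14 (PTTG1, conversion rate). At a mean of at least 20 CPM the conversion change of BIRC5 in induced wild type against vehicle was -0.00384. With 2 mutant libraries and as few as 16 reads per library, small changes of low genes were not detectable.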
